A study of Mus musculus with 8 samples.

Results

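The data described here are counts of 5-hydroxymethylcytosine (5hmC) regions of mouse hippocampus, summed in fixed 1 Mb bins of the 19 autosomes and compared between mice given 1 Gy of protons (1 Gy pools) and sham-irradiated mice given 0 Gy (sham pools). A bin holds the regions whose midpoint falls in it, and it was kept when it held 3 or more regions. Regions whose mean library-scaled count (CPM, the count divided by the library total and scaled to 1000000) over the 4 libraries exceeded 20 times that of the median region were left out first, 10 of them on autosomes. Of 2331 autosomal bins with any region, 2013 were kept, and they hold 21193 of the 21990 hippocampal regions. The choice used the number of regions and, for the regions left out, their mean over both groups, but not the difference between the groups.

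All animals were C57BL/6 mice, and hippocampal DNA was taken 20 weeks after exposure. DNA of several mice was combined before immunoprecipitation. Each group has 2 pools, and the labels give 5 mice in each treatment group without saying how they were divided over the pools. The pool is therefore the unit of replication, and the spread between the mice of a pool is not seen. Each p-value sets the difference between the groups against the spread between pools, 2 a group unless a pool was left out. The sources used here give neither the age at exposure nor the sex of the mice. Whole hippocampus mixes neurons and glia, so a shift in the mix of cells and a change of 5hmC within a cell type cannot be told apart. No marker of the labelled tissue could be checked, because the files hold positions on the build mm9 and no gene names, and no annotation of that build was used here. Bins are therefore named by position, and no sequence is shown.

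5hmC is made from 5-methylcytosine by the TET enzymes, which oxidise the methyl group. It is abundant in neurons, where it lies mainly along the bodies of active genes and at enhancers, and much of it is a stable mark rather than a short-lived step of demethylation. In immunoprecipitation an antibody enriches fragments that carry the mark, so a count follows both the amount of 5hmC and the efficiency of the enrichment. Gene-rich and gene-poor stretches of a mammalian chromosome alternate on the scale of megabases, and a 1 Mb bin averages over several genes or over part of a gene desert. Bins were used because a single region holds few counts, and a bin's value can reflect many of its regions or 1 strong one.

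Depth differed between the groups. The kept bins summed to 246113 (sham pool 1), 96278 (sham pool 2), 1517628 (1 Gy pool 1) and 1333281 counts (1 Gy pool 2). The median bin held 112 (sham pool 1), 39 (sham pool 2), 612 (1 Gy pool 1) and 541 counts (1 Gy pool 2). Sham pool 2 was the shallowest: 20 bins stood at 0 and 266 bins under 10 counts there, whereas no bin of sham pool 1 fell below 14. The limit that an empty bin allows is 3 counts, or 31.2 CPM for sham pool 2 and 1.98 CPM for 1 Gy pool 1. The bins held 3 to 36 regions (median 9), which covered a median of 25.1 kb of the megabase. At the edge of the rule, the 175 bins with 3 regions had median counts of 42 and 6 against 113 and 98 after 1 Gy. The 188 bins with 2 regions, not kept, had 29 and 2 against 59 and 49.5. The autosomal region just above the limit on high counts stood at 22.0 times the median region, on chromosome 5 (148421617 to 148424160), and the one just below it at 18.9 times, on chromosome 11 (3058548 to 3066243).

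Summing over a megabase narrowed the spread between pools but gave no bin past the threshold. In edgeR's quasi-likelihood test 0 of 2013 bins passed a false discovery rate (FDR, Benjamini-Hochberg) of 0.05, a share of 0%, and the smallest FDR was 0.778. An unadjusted p under 0.05 was found for 86 bins (4.27%), 40 higher and 46 lower after 1 Gy, where 100.65 are expected from uniform p-values. The biological coefficient of variation was 0.248 in bins and 0.602 in single regions. The median standard error of a bin's log2 fold change was 0.31. The fold changes themselves were small in most bins: the middle 90% lay between -1.13 and 0.49 on the log2 scale, 74.7% within 0.5 of 0. A log2 fold change above 1 was seen in 10 bins and one below -1 in 136.

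In 405 bins (20.1%) the 1 Gy pools stood above the sham pools without overlap, and in 382 (19.0%) below them. With total counts in place of TMM scaling the numbers were 316 and 461, so the share of higher among them was 51.5% with TMM and 40.7% with total counts. Among single regions of these bins that passed the low-count filter, 23.1% lay higher without overlap and 8.11% lower. Single regions were scaled in a fit of their own, with TMM factors of 1.22 and 1.05 (sham) and 0.863 and 0.899 (1 Gy) against 1.09, 0.967, 0.972 and 0.979 for bins, so these shares are not compared with those of bins. The commonest arrangement was another: in 875 bins (43.5%) both 1 Gy pools lay between the 2 sham pools. Sham pool 1 was the upper one in 446 of these and sham pool 2 in 429.

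The 2 sham pools ranked the bins in opposite order. This is seen in the rate of a bin, its CPM per kb of covered sequence, which takes out the number and width of its regions. Across the 2013 bins, which share libraries and are no replicates, the Spearman correlation of rates was -0.649 for the sham pair and 0.879 for the 1 Gy pair. Sham pool 2 correlated with 1 Gy pools 1 and 2 at 0.466 and 0.473, and sham pool 1 at -0.534 and -0.546. The plain sums per bin correlated at 0.779 for the sham pair and at 0.988 for the 1 Gy pair, since all libraries share the regions of a bin. The opposite order held within bins of like region number too: among the sparsest bins (3 to 7 regions) the sham pools correlated at -0.586, and among the densest (13 to 36 regions) at -0.540. Of the 201 bins with the highest rates in each pool, the 1 Gy pools shared 123 (61.2%) and the sham pools 6 (2.99%).

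**Figure D1:**
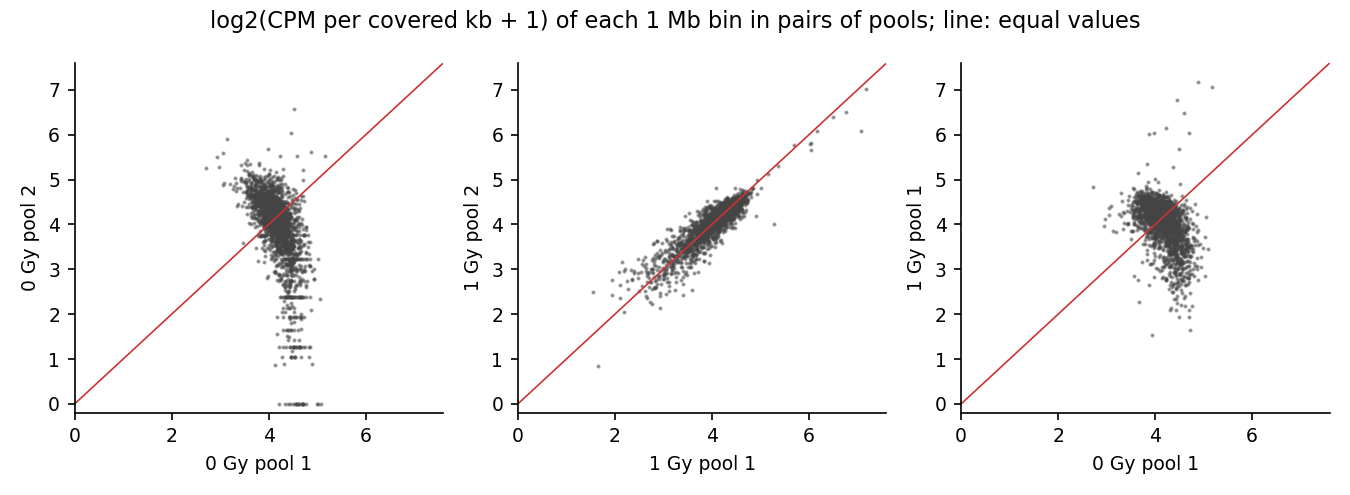
Each point is one of the 2013 bins, placed by its log2(TMM-scaled CPM per covered kb + 1) in the pools named on the axes, and the red line marks equal values. The 1 Gy pools follow the line (Spearman 0.879), while bins high in sham pool 1 are low in sham pool 2 (-0.649) and in 1 Gy pool 1 (-0.534).

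The width of this distribution differed between the sham pools as well. In sham pool 1 the rate at the 90th percentile of bins was 1.71 times that at the 10th, in sham pool 2 it was 3.85 times, and in the 1 Gy pools 2.39 and 2.36 times. The SD across bins of log2(CPM per covered kb + 1) was 0.298 and 0.860 for the sham pair and 0.512 and 0.492 for the 1 Gy pair. The 1 Gy pools lay between the sham pools, and the group difference of -0.08 had an exact two-sided permutation p of 1.00. With all libraries thinned to 96278 counts the SDs were 0.354 and 0.860 against 0.619 and 0.602.

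Bins rich in 5hmC regions stood relatively higher after 1 Gy and bins poor in them lower, and this pattern rested on sham pool 1. The bins were divided by their number of regions into 764 sparse bins (3 to 7 regions), 584 intermediate bins (8 to 12) and 665 dense bins (13 to 36). The median log2 fold change was -0.47 in sparse bins, -0.03 in intermediate bins and 0.20 in dense bins, against -0.03 over all bins. In dense bins 260 (39.1%) lay higher without overlap and 25 (3.76%) lower, and in sparse bins 45 (5.89%) lay higher and 249 (32.6%) lower, beside 20.1% and 19.0% over all bins. Without sham pool 1 the medians were 0.03 in sparse and 0.04 in dense bins, and without sham pool 2 they were -0.66 and 0.35. The 20 bins at 0 in sham pool 2 were also set to the floor of 3 counts in the fit without sham pool 1, and the medians were again 0.03 and 0.04. With loess offsets, which remove trends with abundance, the medians were 0.02 and -0.01. The count of a bin follows its number of regions, so these offsets also remove a trend with region number and cannot test it.

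The rates show where the pools parted. In bins with 3 to 4 regions the median rate was 19.8 CPM per covered kb in sham pool 1, whereas sham pool 2 had 10.6 and the 1 Gy pools 10.3 and 10.4. In bins with 24 or more regions sham pool 1 had 14.5, sham pool 2 had 20.5, and the 1 Gy pools had 21.9 and 21.8. Thus the rate fell with region number in sham pool 1 (Spearman -0.445 across bins) and rose in sham pool 2 (0.399) and in the 1 Gy pools (0.700 and 0.684). The dense bins, with 55.4% of the regions, took 52.7% (sham pool 1), 61.1% (sham pool 2), 62.5% and 62.3% (1 Gy pools) of the counts. That is 56.9% ± 5.93 against 62.4% ± 0.153 (SD, n = 2 pools each), with an exact two-sided permutation p of 0.333, and this design allows no smaller p. The difference of 5.55 percentage points was 1.35 without sham pool 1 and 9.74 without sham pool 2, and with the high-count regions put back it was -1.07.

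**Figure D2:**
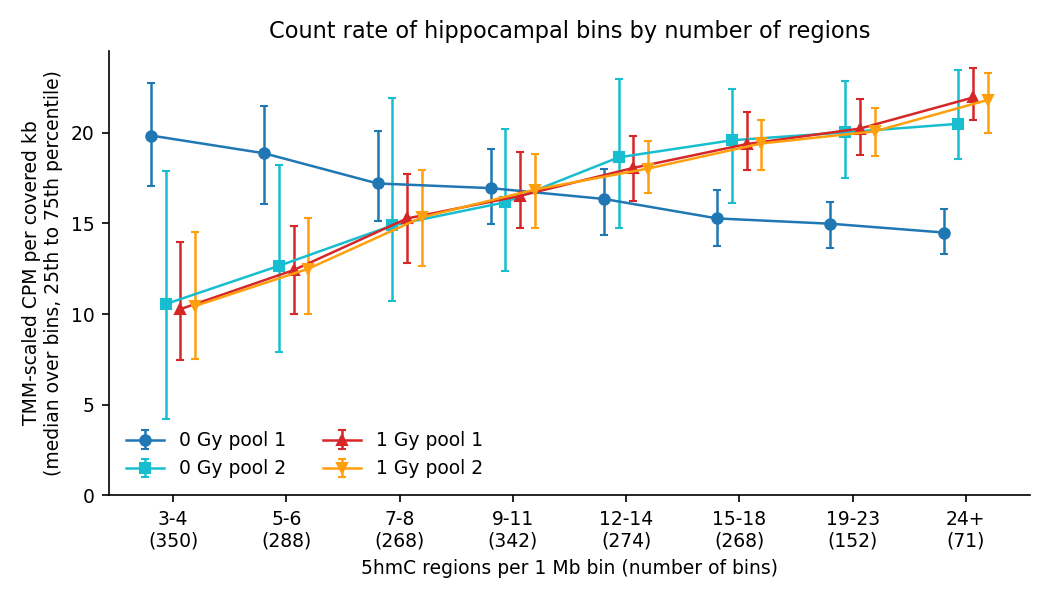
Median TMM-scaled CPM per covered kb over the bins of each class of region number (x axis, with the number of bins in brackets), with the 25th to 75th percentile as bars, in the 4 pools. Sham pool 1 falls from 19.8 to 14.5, while sham pool 2 and both 1 Gy pools rise, sham pool 2 from 10.6 to 20.5 and 1 Gy pool 1 from 10.3 to 21.9.

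The count distribution of sham pool 1 is given here for the same division. In that pool 1257 kept regions held 11 counts and 2108 held 12, a step in the count distribution, and 54.6% held 12 or more. The share was 69.1% in sparse bins, 57.3% in intermediate bins and 48.7% in dense bins. The sources used here do not say which libraries gave peaks to the merged list, and the part of the step in the result was not tested. Regions per bin come from that list, so they are not independent of the counts.

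Other properties of the bins followed the number of regions. Bins were divided into groups of 671 by the share of their covered length in regions wider than the commonest width of 2544 bp. The median log2 fold change was -0.48 in those with the least and 0.19 in those with the most wide sequence. Without overlap, 4.32% and 31.4% of them lay higher, beside 20.1% over all bins, and 33.5% and 5.96% lower, beside 19.0%. The order turned when sham pool 1 was left out, with medians of 0.09 and -0.03. The share of wide sequence and the number of regions correlated at 0.488 across bins. The list of ventricular 5hmC regions, made from other libraries of heart tissue, gave the same order: the 119 bins without a ventricular region had a median log2 fold change of -0.82, and the 852 bins with 6 or more had 0.16. Without overlap, 3 of those 119 bins (2.52%) lay higher and 44 (37.0%) lower. Of the 852 bins 294 (34.5%) lay higher and 57 (6.69%) lower, beside 20.1% and 19.0% over all bins. Without sham pool 1 these medians were 0.06 and 0.02. The numbers of hippocampal and ventricular regions in a bin correlated at 0.745.

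Along the chromosome, the ends differed from each other. Mouse autosomes carry the centromere at their start. In the 154 bins within 10 Mb of the first listed region the median log2 fold change was -0.19, with 12.3% higher and 26.6% lower without overlap. In the 176 bins within 10 Mb of the last region it was 0.12, with 28.4% higher and 10.8% lower. The shares over all bins were 20.1% higher and 19.0% lower. The distal bins had a median of 14 regions and the proximal ones 8, so the ends also differed in region number. Without sham pool 1 the medians were -0.05 and 0.03.

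Of the 5 bins ranked first by p among higher bins, 4 held 3 regions each, and in these a single region held at least 86.7% of the 1 Gy counts. On chromosome 4 from 3000001 to 4000000, the first megabase with regions on that chromosome, the bin held 58 and 34 sham counts, against 1615 and 1281 after 1 Gy. In scaled values this is 291 CPM ± 105 against 1038 CPM ± 80.0 (SD, n = 2), without overlap. The log2 fold change was 1.91 (SE 0.29, edgeR adjusted p = 0.778). One region (3016240 to 3018773) held 25 and 34 of the sham counts and 1554 and 1217 of the 1 Gy counts. Its neighbours (3451956 to 3454499 and 3719304 to 3721847) held 19 and 14 counts in sham pool 1, none in sham pool 2 and between 15 and 46 after 1 Gy. Without the highest region of the bin the log2 fold change was -0.53.

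A single region dominated in the same way on chromosome 12, chromosome 6 and, for 1 of 2 bins, chromosome 3. The bin on chromosome 12 from 68000001 to 69000000 held 30 and 12 counts against 729 and 493, and its region at 68158953 to 68161501 held 7 and 6 against 681 and 470. On chromosome 6 from 103000001 to 104000000 the counts were 28 and 17 against 720 and 541, of which the region at 103598154 to 103600697 held 5 and 16 against 624 and 473. On chromosome 3 from 56000001 to 57000000 they were 44 and 19 against 568 and 534, of which the region at 56378450 to 56380993 held 17 and 19 against 526 and 489. Their log2 fold changes were 1.88, 1.75 and 1.14 (edgeR adjusted p = 0.778 in each). Without the highest region they were -1.61, 0.18 and -0.78. That region was chosen by its mean over both groups, which the 1 Gy pools dominate.

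The bin on chromosome 3 from 25000001 to 26000000 was the exception among the higher ones, since its regions lay higher together. It held 73 and 26 sham counts and 860 and 741 counts after 1 Gy, or 276 CPM ± 4.33 against 575 CPM ± 10.7 (SD, n = 2). Of its 7 regions 6 lay higher without overlap, beside 23.1% of single regions over all bins. The share was 35.7% within the 405 bins that lay higher, since a higher sum comes from its regions. The 5 regions from 25423805 to 25451336 lie within one short stretch. The widest of them (25446306 to 25451336) held 0 and 6 counts against 241 and 211. The log2 fold change was 1.06 (SE 0.21, edgeR adjusted p = 0.778), and 0.72 without its highest region. No ventricular region lay in this bin.

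The 5 bins ranked first by p among lower bins held 6 to 8 regions each, and the region with the highest mean took at most 34.6% of the 1 Gy counts. That region took at most 17.1% of the counts in sham pool 1. In the shallow sham pool 2 it took between 28.9% (chromosome 19) and 96.4% (chromosome 7), and 45.8% on chromosome 17. On chromosome 19 from 12000001 to 13000000 the bin held 112 and 45 sham counts and 264 and 283 counts after 1 Gy, which is 451 CPM ± 45.4 against 198 CPM ± 26.8 (SD, n = 2). Its log2 fold change was -1.18 (SE 0.28, edgeR adjusted p = 0.778). Of its 8 regions 7 passed the low-count filter. Of these, 3 lay lower without overlap and none higher, beside 8.11% and 23.1% of single regions over all bins. Within the 382 bins that lay lower, 20.1% of regions lay lower and 6.47% higher. The bin on chromosome 17 from 76000001 to 77000000 held 86 and 24 counts against 126 and 112 (log2 fold change -1.77). That on chromosome 8 from 66000001 to 67000000 held 105 and 30 against 214 and 206 (-1.25). That on chromosome 12 from 94000001 to 95000000 held 89 and 24 against 139 and 153 (-1.50). Of its 7 regions 6 passed the low-count filter and 5 lay lower without overlap, beside 8.11% of single regions over all bins. In the chromosome 17 bin 3 of 6 regions passed the filter and 1 lay lower. In the chromosome 8 bin 6 of 7 passed and 3 lay lower. The 1 Gy libraries are several times deeper, so a lower value here can go with a larger raw count.

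In 1 of the lower bins the sham value of the shallow pool came from 1 region. On chromosome 7 from 94000001 to 95000000 the counts were 91 and 28 against 183 and 150 (log2 fold change -1.43). All 6 regions of this bin passed the low-count filter, and none lay lower without overlap. The region at 94807393 to 94809936 held 27 of the 28 counts of sham pool 2 and 0 of the 91 of sham pool 1. Without it the log2 fold change of the bin was -0.83. Across all 10 bins named so far the direction was the same with either sham pool left out, and all 10 then passed the FDR in edgeR. The p-values that chose them come from the same pools, so this is no independent support.

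**Figure D3:**
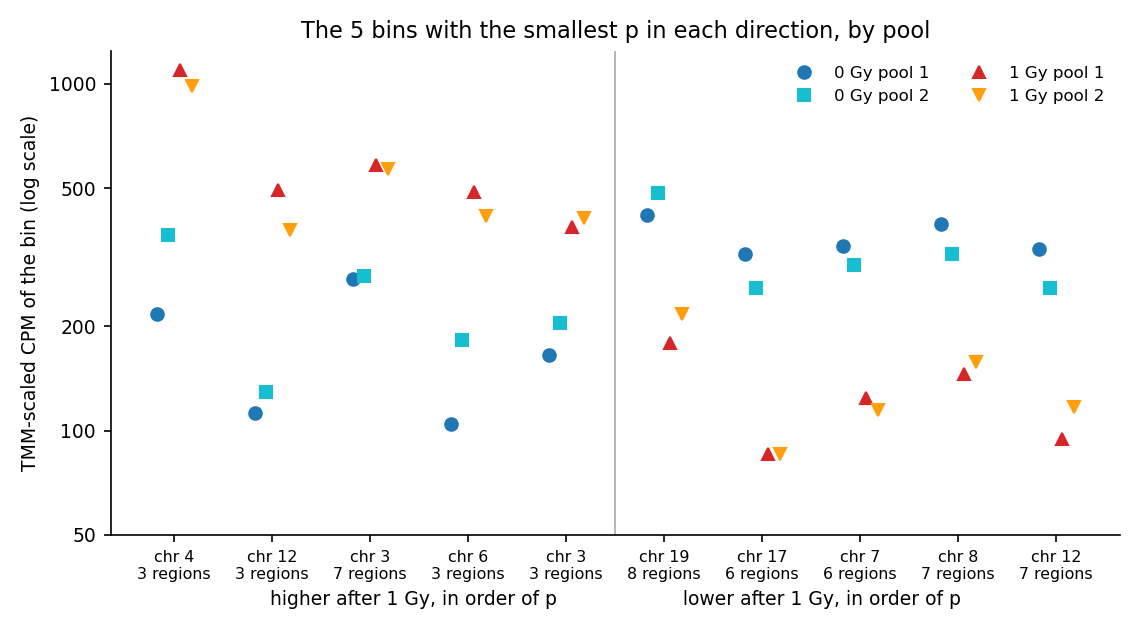
TMM-scaled CPM (log axis) in each pool of the 5 higher and 5 lower bins ranked first by p, labelled by chromosome and number of regions. In the chromosome 4 bin the sham pools stand at 217 and 365 and the 1 Gy pools at 1095 and 982, and in none of the 10 bins do the groups overlap.

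The bins with the highest rates over the 4 pools were all higher in the 1 Gy pools. Besides the chromosome 4 bin at 3000001, with sham rates of 28.5 and 47.9 CPM per covered kb and 1 Gy rates of 144 and 129, they lay on chromosome 13, chromosome 17, chromosome 11 and again chromosome 4. On chromosome 13 from 77000001 to 78000000 the rates were 20.9 and 64.4 against 108.5 and 89.9, and 1 region held 93.9% and 93.4% of the 1 Gy counts. On chromosome 17 from 39000001 to 40000000 they were 34.9 and 44.9 against 133 and 67.3, so the 1 Gy pools differed between themselves more than the sham pools did. On chromosome 4 from 70000001 to 71000000 they were 17.8 and 45.1 against 70.5 and 66.9. Without their highest region the log2 fold changes of the chromosome 13 bin and of this one were -0.76 and -0.45, and that of the chromosome 17 bin was 1.39, against 1.36 with it. These 5 bins were taken by a mean that the high 1 Gy values enter, so their direction is a description only.

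In the chromosome 11 bin from 3000001 to 4000000 the counts were spread over many regions. It held 28 regions over 90103 bp, with 557 and 379 sham counts and 11845 and 9769 counts after 1 Gy, the most of any bin. The highest region took between 13.6% and 17.3% of the bin's counts in the 4 pools. Of its 28 regions 15 lay higher without overlap and 2 lower, beside 23.1% and 8.11% of single regions over all bins. Within the 405 bins that lay higher the shares were 35.7% and 3.92%. The log2 fold change was 1.35 (SE 0.52, edgeR adjusted p = 0.778), 1.19 without its highest region, 0.40 with loess offsets and 0.19 when only regions of the commonest width entered. DESeq2 called this bin (FDR 6.92e-04) and the chromosome 4 bin at 3000001 (FDR 0.00204) and no other.

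The bins with the lowest rates had higher scaled counts in sham pool 1 than in the other pools. All 5 held 3 regions, and they started at 143000001 on chromosome 1, at 52000001 and 92000001 on chromosome 17, at 49000001 on chromosome 7 and at 110000001 on chromosome 14. Sham pool 1 held 36 to 52 counts in them, sham pool 2 between 0 and 2, and the 1 Gy pools between 8 and 86. On chromosome 7 the counts were 52 and 2 against 24 and 8, or 194 and 21.5 CPM against 16.3 and 6.13. Its log2 fold change of -3.34 was the lowest of all bins (SE 1.31, edgeR adjusted p = 0.778) and was -0.90 without sham pool 1. The bins that start at 93000001 on chromosome 7, 48000001 on chromosome 10 and 93000001 on chromosome 4 mark the limit of depth: with 64 to 84 counts in sham pool 1 they held 0 in sham pool 2.

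The 3 bins with the most regions had log2 fold changes between 0.22 and 0.55. The bin on chromosome 2 from 59000001 to 60000000 held 36 regions, and its counts were 332 and 170 against 3205 and 2971 after 1 Gy. Its log2 fold change was 0.55 (SE 0.31, edgeR adjusted p = 0.778), 19 of its regions lay higher without overlap and none lower. Over all bins 23.1% of single regions lay higher and 8.11% lower, and within the 405 bins that lay higher 35.7% and 3.92%. On chromosome 4 from 151000001 to 152000000 (35 regions) the log2 fold change was 0.38, and from 140000001 to 141000000 (33 regions) it was 0.22. Without sham pool 1 these 3 values were 0.29, -0.07 and -0.04.

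Neighbouring bins resembled each other, in the 1 Gy pools more than in the sham pools. Between bins 1 Mb apart on the same autosome the rates correlated (Spearman) at 0.365 and 0.312 in the 1 Gy pools and at 0.144 and 0.103 in the sham pools, and the number of regions at 0.416. The log2 fold change correlated at 0.265 at 1 Mb, 0.162 at 3 Mb and 0.069 at 10 Mb. Depth differs between these libraries, and its part in the difference between the pools was not tested. Of 382 bins that lay higher without overlap and had a kept bin next to them, 102 (26.7%) were followed by another higher one, beside 20.1% of all bins, and 51 (13.4%) by a lower one. Of 305 such lower bins, 67 (22.0%) were followed by another lower one, beside 19.0% of all bins, and 41 (13.4%) by a higher one.

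**Figure D4:**
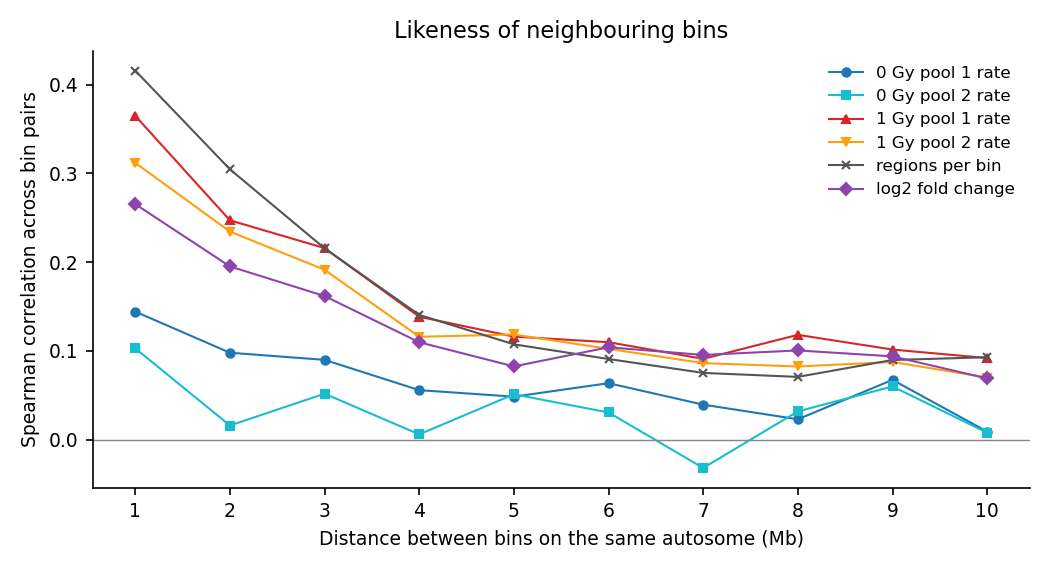
Spearman correlation across pairs of bins on the same autosome (y axis) by their distance in Mb (x axis), for the rate in each pool, the number of regions and the log2 fold change. At 1 Mb the number of regions stands highest (0.416), then the 1 Gy pools (0.365 and 0.312), the log2 fold change (0.265) and the sham pools (0.144 and 0.103).

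The longest stretch in 1 direction was 6 bins on chromosome 11, from 67000001 to 73000000, all higher without overlap. Together they held 98 regions, with 1051 and 415 sham counts and 7281 and 6501 counts after 1 Gy. That is 0.427% and 0.431% of the counts against 0.480% and 0.488%. The log2 fold changes were 0.16 to 0.54, and none of the 6 had an unadjusted p under 0.05 in edgeR. Stretches of 4 bins lay higher from 134000001 to 138000000 on chromosome 1, from 103000001 to 107000000 on chromosome 5 and from 125000001 to 129000000 on chromosome 6. Others lay lower from 14000001 to 18000000 on chromosome 5 and from 42000001 to 46000000 on chromosome 18. The lower stretch on chromosome 5 had 18 regions, with 231 and 57 counts against 646 and 438 and a median log2 fold change of -0.96. These stretches were picked out by their direction and have no test of their own.

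Whole autosomes differed little. Of the 19 sums, 8 (42.1%) lay higher and 6 (31.6%) lower without overlap, and none (0%) passed the FDR in edgeR, where 6 had an unadjusted p under 0.05. Chromosome 11 came nearest: its share of the counts was 6.42% and 6.79% in sham, 7.50% and 7.33% after 1 Gy (log2 fold change 0.17, SE 0.04, edgeR FDR 0.0576). It passed with total counts (edgeR FDR 0.0361) and in libraries thinned to equal totals (0.000373). It did not pass with size factors of the DESeq2 type (0.0882), with high-count regions kept (0.0757) or with the replicate number as a block (0.279). With 1 pool left out it passed only without sham pool 2, where the sham group had a single pool. The bin at 3000001 made up 0.226% and 0.394% of all sham counts and 0.780% and 0.733% of those after 1 Gy. Without that bin the log2 fold change of chromosome 11 was 0.08 (edgeR FDR 0.117). By the median of its bins, chromosome 17 was the highest autosome (0.15, 80 bins) and chromosome 3 the lowest (-0.18, 130 bins). Without overlap, 24 bins of chromosome 17 lay higher (30.0%) and 13 lower (16.25%). On chromosome 3 they were 27 (20.8%) and 29 (22.3%), near the 20.1% and 19.0% over all bins. Without sham pool 1 the median of chromosome 3 was 0.13 and that of chromosome 17 was 0.11. Across the 19 autosomes the median followed the regions per bin (Spearman 0.753, and 0.342 without sham pool 1), which were 11.9 on chromosome 17 and 8.49 on chromosome 3.

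**Figure D5:**
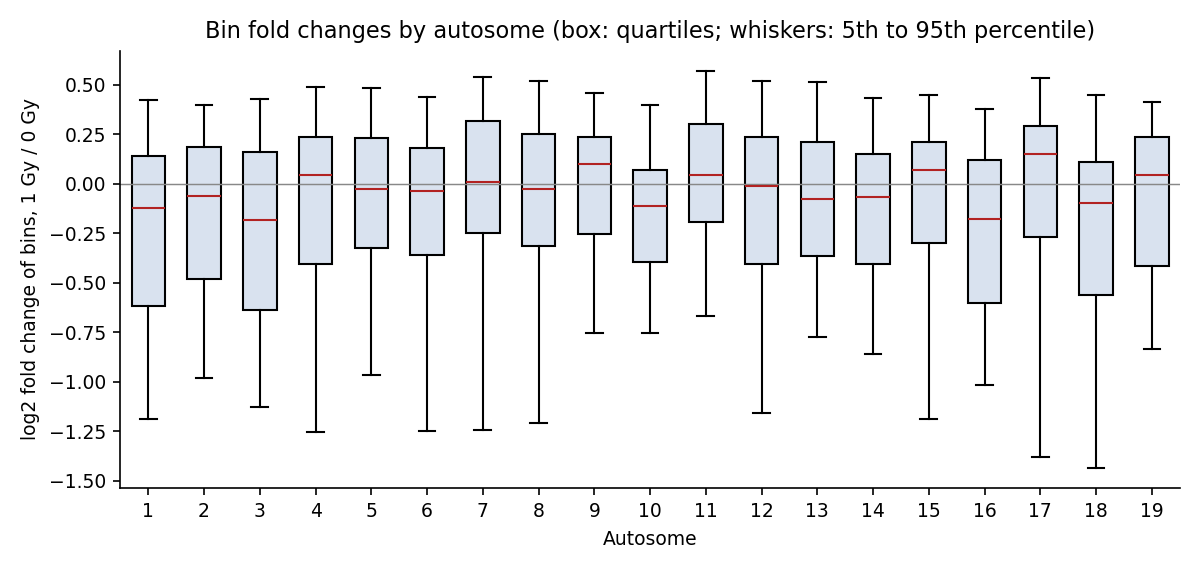
Log2 fold changes (1 Gy over 0 Gy, edgeR) of the bins of each autosome, with boxes for the quartiles, a red line at the median and whiskers from the 5th to the 95th percentile. The medians lie between -0.18 (chromosome 3) and 0.15 (chromosome 17), and the box of every autosome spans 0.

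With 1 sham pool left out, many bins passed, and the lists differed. Without sham pool 1 edgeR called 147 bins higher (7.30%) and 163 lower (8.10%), while the fit lacking sham pool 2 gave 447 higher (22.2%) and 459 lower (22.8%). The lists had 29 higher bins in common, which is 19.7% of the first and 6.49% of the second, and 27 lower bins (16.6% and 5.88%). A further 31 bins were called higher without sham pool 1 and lower without sham pool 2, and 42 the reverse. In these fits the remaining sham pool is assumed to vary as little as the 1 Gy pools do, and the coefficient of variation was 0.0854. With a 1 Gy pool left out 0 bins passed, 3 (without 1 Gy pool 1) and 6 (without 1 Gy pool 2) had an unadjusted p under 0.05, and the coefficient of variation was 0.411 and 0.410.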

How the data were processed

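The authors deposited 1 file of whole-number counts per library, over merged peaks whose coordinates are identical in the 4 hippocampal files. The submitters' processing notes list the build mm9 and the tools Bowtie 1.0.0, CASAVA 1.8.2 and DESeq2, with no roles. How peaks were called and merged, and how duplicates or input were handled, was not given in the sources used here. Intervals follow the BED layout, and 1 was added to each start.

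Counts were summed per bin and tested with edgeR 4.0.16 (R 4.3.3): TMM scaling, filterByExpr (which removed 0 bins), quasi-likelihood F-test, Benjamini-Hochberg adjustment over all 2013 bins, FDR 0.05. Rates are TMM-scaled CPM per kb of covered sequence. Values of 1 number per pool were compared by exact permutation tests. DESeq2 1.42.0 and other scalings, bin sizes, filters, a block and left-out pools were alternatives, listed in the closing part. Single regions were fitted over all hippocampal regions. The fitting steps were tested on simulated data, with pass marks set only for a coefficient of variation below the 0.248 of the bins. Named bins are the 5 smallest p in each direction, the 5 highest and 5 lowest rates, the 3 with the most regions and 3 at the depth limit. The 3 bins called by DESeq2 or the block were already among these. The bins and the groupings were chosen with earlier results of these data known, and the stretches of adjacent bins after their values were seen. Floors and intervals reflect counting error within a library alone. They treat every count as an independent molecule, which could not be checked because no molecular identifiers mark them.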

Additional observations from a re-analysis of the deposited data

Results flagged for a closer look

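The 10 autosomal high-count regions left out of the bins took 3.29% (95% exact binomial interval 3.22 to 3.36) and 10.95% (10.8 to 11.1) of all hippocampal counts in the sham pools, and 18.3% (18.2 to 18.4) and 15.9% (15.8 to 16.0) in the 1 Gy pools. This share is given because the signal lies outside the bins and was higher after 1 Gy without overlap. The regions were set apart by a mean that the high 1 Gy values enter, so their direction is a description only. Neighbouring regions on chromosome 2 held most of these counts in every pool. The region from 98505767 to 98508310 held 4655 and 7081 sham counts and 207440 and 150270 after 1 Gy. The one from 98501468 to 98504011 held 2362 and 2636 against 72350 and 55077. The intervals cover counting error only, and sham pools 1 and 2 differ from each other by more than either 1 Gy pool differs from sham pool 2.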

How the results depend on the processing

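The count of bins past the FDR was 0 under 18 of 22 alternatives. Not all of these were separate checks. The fits with no filter and with 20 counts in 2 libraries kept the same 2013 bins as the main fit. The threshold of 0.1 was applied to the main fit itself, where the smallest FDR was 0.778. DESeq2 called 2 (chromosome 4 at 3000001 and chromosome 11 at 3000001) and the fit with the replicate number as a block 2 (chromosome 4 at 3000001, FDR 4.39e-05, and chromosome 13 at 77000001, FDR 0.0343). The pools share only a replicate number, not a known pairing: across bins, the deviations of same-numbered pools from their group means correlated at -0.03. With 1 pool left out the count ranged from 0 to 906. Bins without overlap numbered 222 higher and 237 lower in 2 Mb bins, of which there are fewer (1175), and stayed within 1.5 times of 405 and 382 elsewhere. Autosomes past the FDR numbered 1 with total counts, 1 in thinned libraries and 0 to 3 with 1 pool left out (3 without sham pool 2, on chromosomes 3, 11 and 17). The dense minus sparse difference of median log2 fold change was 0.67. It was 0.53 in thinned libraries, 0.54 with the block, and ranged from 0.0133 (without sham pool 1) to 1.01 (without sham pool 2). With loess offsets it was -0.0316, but these also remove a trend with region number. The dense-bin share difference was -1.07 percentage points with high-count regions kept and ranged from 1.35 to 9.74 with 1 pool left out. The difference in SD across bins was 0.0201 in 2 Mb bins and 0.0037 in thinned libraries, and ranged from -0.36 to 0.20 with 1 pool left out. Correlations of thinned pools were 0.685 (1 Gy) and -0.539 (sham), each nearer to 0 than at full depth. Without their highest region, a setting chosen after seeing the data, 5 named bins turned from higher to lower: chromosome 4 at 3000001 (-0.53) and 70000001 (-0.45), chromosome 12 at 68000001 (-1.61), chromosome 3 at 56000001 (-0.78) and chromosome 13 at 77000001 (-0.76). The repeats of the dense minus sparse difference and the autosome sums without the fullest bin were also added after seeing the data. The causes of these changes were not tested, apart from the fewer bins at 2 Mb. Total counts moved the median log2 fold change of all bins from -0.03 to -0.11. Depth limits the comparison most in sham pool 2, where 23.8% of kept regions held no count.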
